A study of Mus musculus with 18 samples.

Results

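This account follows 33 genes of the unfolded protein response and of protein folding in the endoplasmic reticulum, out of 55487 genes counted, in T23 cells. T23 is a mouse prostate adenocarcinoma line. The 33 genes were named as members of the pathway, with earlier results of these data known. RNA sequencing covered 18 libraries in 6 groups of 3. The untreated groups were T23 cells alone, their co-culture with wild-type fibroblasts, and their co-culture with fibroblasts deficient in Sparc. Sparc encodes a secreted matrix protein. The other groups were T23 cells given enzalutamide, a prostate cancer drug, T23 cells given enzalutamide in co-culture with fibroblasts, and the same co-culture given enzalutamide plus isoliquiritigenin (ISO in the sample titles), a plant chalcone. All 6 groups share the same tumour line. Doses, times and the way the co-cultures were set up are not given in the sources used here. The sample characteristics call the fibroblasts of the last 2 of these groups human, while the titles give them the same name, FIBROB6, as the wild-type fibroblasts. A change of fibroblast and an effect of enzalutamide therefore cannot be told apart between treated and untreated co-cultures. The labels do not say that replicates came from separate cultures, so p-values measure the spread between these samples, which may be technical.

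The endoplasmic reticulum folds secreted and membrane proteins, and unfolded protein in it is sensed by the membrane proteins IRE1 (gene Ern1), ATF6 and PERK (gene Eif2ak3). IRE1 splices the mRNA of Xbp1, ATF6 is cleaved to a transcription factor, and PERK slows translation and raises ATF4. The resulting factors switch on chaperones, disulfide enzymes and the machinery that sends misfolded protein to degradation, which secretory cells such as prostate epithelium and collagen-making fibroblasts run at a high level. Gene counts do not show splicing of Xbp1, cleavage of ATF6 or phosphorylation of PERK. In bulk RNA, fewer cells of a type and less RNA per cell cannot be told apart.

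Promoter sequences are shown first, to describe the DNA element that the response is known to act through. Some of the genes that changed carry it and others do not, and its part in the changes was not tested. The endoplasmic reticulum stress element (ERSE) was searched as CCAAT and CCACG separated by 9 bases, and ERSE-II as ATTGG and CCACG separated by 1 base, on both strands. RefSeq promoter windows (build GRCm38.p6) reach from 250 bases before to 50 bases after each start site, and 25 of the 33 genes matched by symbol. ERSE was present in 9 of these 25 windows (36%), against 39 of all 32851 windows (0.119%). The 9 genes were Calr, Canx, Creld2, Derl3, Dnajc3, Hsp90b1, Hspa5, Pdia6 and Syvn1. ERSE-II was present in the windows of Dnajb11 and Herpud1, 2 of 25 (8%) against 0.0365% of all windows. The letters TGACGT, known from cAMP response elements, were found in the windows of Canx, Dnajb11 and Hspa5 (12%, against 7.51% of all windows). The longer form TGACGTGG, which contains them and is known from XBP1 and ATF6 binding sites, was found in none of the 25 windows and in 0.676% of all windows. The ERSE parts CCAAT and ATTGG are reverse complements, so ERSE and ERSE-II differ in orientation and spacing. These shares follow from the reference sequences and from the choice of genes as members of the response, and not from the RNA data. A match is a description of the letters and not a measured binding site. The 250 bases before the start site of 4 genes are given 5′ to 3′ on the strand of the gene, from RefSeq, with ERSE and TGACGT in capitals. They were chosen because Hspa5 is the textbook target, Hsp90b1 holds 2 matches, and Dnajc3 and Syvn1 rose with isoliquiritigenin.
Hspa5, chr2:34771840-34772089, plus strand: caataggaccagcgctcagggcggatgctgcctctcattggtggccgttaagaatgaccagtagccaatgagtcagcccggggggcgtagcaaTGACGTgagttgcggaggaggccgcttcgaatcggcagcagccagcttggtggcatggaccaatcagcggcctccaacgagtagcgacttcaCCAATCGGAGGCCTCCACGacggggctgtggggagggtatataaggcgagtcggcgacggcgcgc
Hsp90b1, chr10:86705445-86705694, minus strand: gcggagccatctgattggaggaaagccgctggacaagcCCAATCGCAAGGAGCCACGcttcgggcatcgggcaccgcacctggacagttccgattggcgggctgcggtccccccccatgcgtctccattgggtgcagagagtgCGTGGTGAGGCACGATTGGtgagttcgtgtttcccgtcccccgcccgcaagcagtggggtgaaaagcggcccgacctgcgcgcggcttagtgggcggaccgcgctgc
Dnajc3, chr14:118937682-118937931, plus strand: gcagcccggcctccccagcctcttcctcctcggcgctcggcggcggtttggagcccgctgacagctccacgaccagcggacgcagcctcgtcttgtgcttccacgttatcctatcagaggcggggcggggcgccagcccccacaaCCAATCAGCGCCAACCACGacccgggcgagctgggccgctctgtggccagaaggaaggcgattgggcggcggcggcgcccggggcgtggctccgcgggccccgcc
Syvn1, chr19:6046326-6046575, plus strand: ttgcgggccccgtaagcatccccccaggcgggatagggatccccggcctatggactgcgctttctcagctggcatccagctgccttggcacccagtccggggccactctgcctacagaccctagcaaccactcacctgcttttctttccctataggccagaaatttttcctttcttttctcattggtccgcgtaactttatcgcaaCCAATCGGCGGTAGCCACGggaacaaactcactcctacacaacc
The ERSE begins at base -65 from the start site in Hspa5, at -105 in Dnajc3 and at -44 in Syvn1. Hsp90b1 holds its second match on the opposite strand. The windows of Dnajb9 and Edem1, which also changed with isoliquiritigenin, held none of the 4 motifs.

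Library totals ran from 16.1 to 26.7 M counts, and values are given below as normalised CPM (counts per M, scaled by TMM factors). Replicate 2 of enzalutamide without fibroblasts stood apart, with 26.45% of its counts on a ribosomal RNA gene (at most 0.1385% elsewhere), so results that rest on it are given with and without it. The numbering in the sample titles starts again at replicate 2 of the enzalutamide co-culture, so that the isoliquiritigenin libraries all come after this restart. The labels do not say what this marks. Mitochondrial transcripts made up 0.824% to 1.68% of counts in the untreated groups and 1.55% to 4.06% in the enzalutamide groups. The epithelial label could be checked only in part here, since 6 of 10 luminal markers are given and the others are not reported. In T23 cells alone the keratin and adhesion genes Epcam, Krt8, Krt18, Cdh1 and Cd24a were all below 1 CPM, and Krt19 was at 9.55 ± 0.767 CPM (SD, n = 3). These 6 do not stand for the whole list. Fibroblast genes were abundant in the same cells without any fibroblasts, with Col1a1 at 10791 ± 131 CPM and Vim at 4012 ± 71.1 CPM, so these markers do not tell T23 cells from fibroblasts here. Sparc itself stood at 2977 to 3102 CPM with Sparc-deficient and at 3050 to 3092 CPM with wild-type fibroblasts. It does not check the knockout label, because T23 cells alone held 3191 to 3208 CPM.

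Per length of exon, the most abundant members in T23 cells alone were Serpinh1 at 750 ± 6.61 CPM per kb (SD, n = 3) and P4hb at 689 ± 7.78 CPM per kb. Serpinh1 (HSP47) is the collagen-specific chaperone, and P4hb is protein disulfide isomerase and the shared subunit of collagen prolyl hydroxylase. Calr followed at 371 ± 9.74 CPM per kb. Hspa5 (324 ± 2.6 CPM per kb) and Pdia3 (322 ± 6.08 CPM per kb) did not differ beyond their spread, and Hsp90b1 (265 ± 6.13 CPM per kb) and Canx (212 ± 4.51 CPM per kb) came next. The sensors stood low, at 15.7 ± 0.456 CPM per kb for Ern1, 11.5 ± 0.191 for Atf6 and 8.30 ± 0.163 for Eif2ak3. Xbp1, their transcription factor target, was at 43.0 ± 0.542 CPM per kb. Among the disulfide enzymes, Ero1lb, an oxidase known mainly from pancreas, was at 0.736 ± 0.0416 CPM per kb. Derl3, a degradation factor of professional secretory cells, had 0 to 4 counts in any library and was not tested. A count of 0 allows up to 3 counts, or 0.112 to 0.186 CPM, for counting error only.

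**Figure D1:**
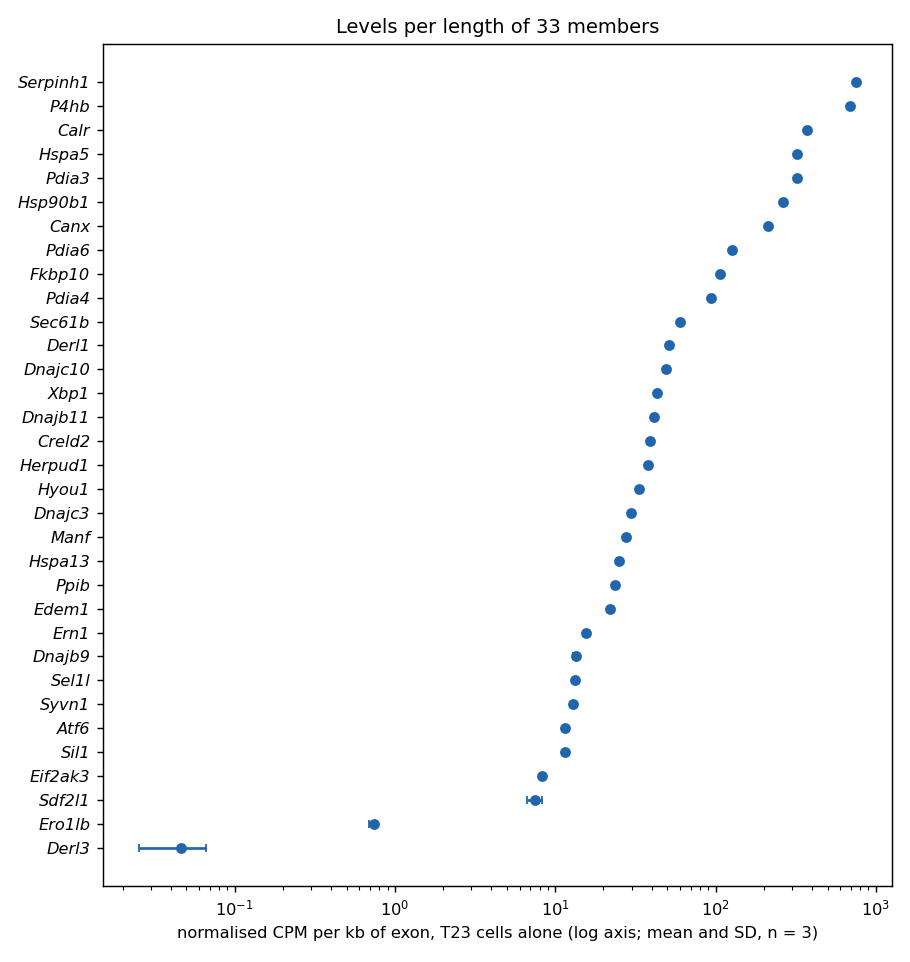
Mean level per kb of exon (log axis; bar, SD; n = 3) of the 33 genes in T23 cells alone, ordered by level. Serpinh1 and P4hb lead at 750 and 689 CPM per kb, and Derl3 lies far below the rest at 0.0460 CPM per kb.

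The other 32 genes were tested, and their levels moved little. The ratio of the highest to the lowest of the 18 libraries ran from 1.14 (Eif2ak3) to 1.82 (Ero1lb). Together the 33 genes took 1.27% to 1.37% of each library's counts outside the ribosomal RNA gene. No gene of the set was both called and changed by 1.5-fold or more in any of the 8 comparisons. The median log2 fold change over all genes tested lay between -0.0058 and 0.0022 in every comparison.

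**Figure D2:**
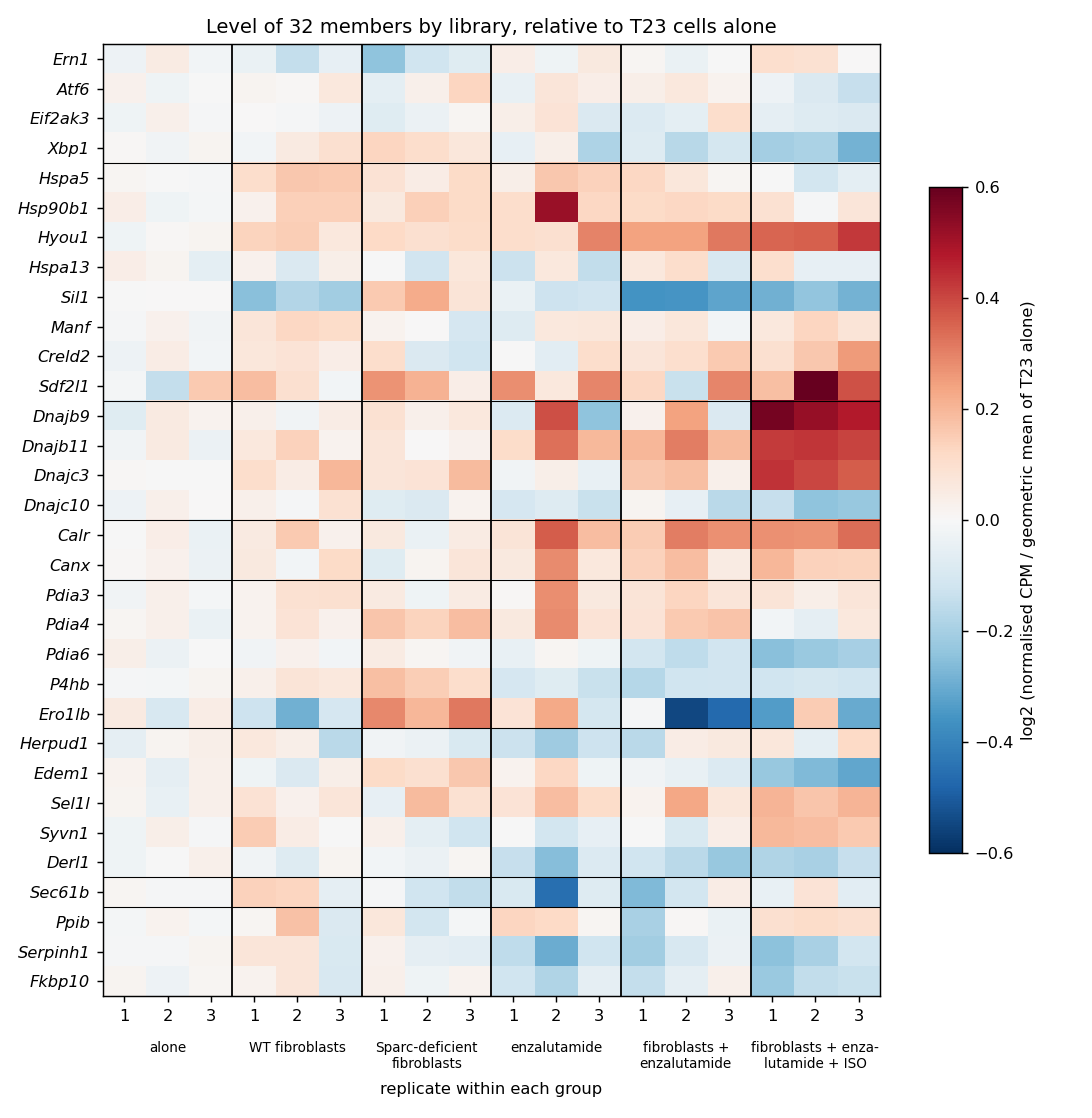
Heat map of log2 normalised CPM of 32 genes (rows, grouped by role) in the 18 libraries (columns), relative to the geometric mean of T23 cells alone; the colour scale is clipped at 0.6 in either direction. The isoliquiritigenin libraries are high for Dnajb9, Dnajb11 and Dnajc3 and low for Edem1, and enzalutamide replicate 2 is high for Hsp90b1.

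The counts of called genes (adjusted p under 0.05, edgeR's quasi-likelihood test with Benjamini-Hochberg adjustment over 13600 genes) are read against the share of all genes called. "Called" refers to this fit over all 18 libraries unless another is named. With wild-type fibroblasts against T23 alone, 0 of 32 were called, where 0.515% of all genes were. At an unadjusted p under 0.05 there were 5 of 32, where 1420 of all 13600 genes were. DESeq2 also called 0, where it called 148 of 13600 genes. The median log2 fold change was 0.04, and 23 of 32 were positive, where 6812 of all 13600 genes were. Between Sparc-deficient and wild-type fibroblasts, 2 of 32 (6.25%) were called, 2 higher and 0 lower, against 11.5% of all genes (6.72% higher and 4.79% lower), with a median of -0.01. Leaving out any of 5 of the 6 libraries left 1 (the exception was replicate 3 with wild-type fibroblasts). Over all genes those 5 fits called 857 to 1225, against 1566 with all libraries. Between Sparc-deficient fibroblasts and T23 alone, 1 of 32 (3.12%) was called, higher, against 9.74% of all genes (6.10% higher and 3.65% lower), with a median of 0.02. Leaving out any of the 6 libraries left 0, and over all genes those fits called 743 to 1003, against 1325 with all libraries. Neither of these shares of the 32, 6.25% and 3.12%, exceeded the background.

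Enzalutamide against T23 alone gave 4 higher and 2 lower of 32 (18.8%), against 12.0% of all genes (6.84% higher and 5.19% lower), and the median was 0.02. Without replicate 2, which was rich in ribosomal RNA, 1 gene was called, where 9.23% of all genes were. There was also 1 without replicate 2 of T23 alone, and there were 0 without its replicate 1 or its replicate 3. Over all genes those fits called 1024 of 13859, 951 of 13839 and 901 of 13884, in that order. With all libraries 1636 of 13600 were called. Enzalutamide against no drug in co-culture gave 0 higher and 1 lower, against 7.18% of all genes (3.70% higher and 3.49% lower), with a median of 0.00. The ribosomal-RNA-rich library is outside this comparison but adds to the shared estimate of spread, and in a fit that left it out 6 genes were called, where 10.2% of all genes were. Hyou1, Dnajb11 and Calr were higher and Xbp1, P4hb and Derl1 lower. Fibroblasts against none under enzalutamide gave 1 lower and 0 higher, against 2.08% of all genes (1.14% higher and 0.941% lower), with a median of -0.01. The interaction sets the enzalutamide difference with fibroblasts against that without, and a change of fibroblast would enter it too. For the interaction 0 of 32 were called, where 0.0221% of all genes were. There were 3 of 32 at an unadjusted p under 0.05, where 755 of 13600 genes were. By DESeq2 there were 0, where 8 of 13600 genes were called. Isoliquiritigenin added to the enzalutamide co-culture gave 5 higher and 1 lower of 32 (18.8%), against 26.5% of all genes (12.9% higher and 13.6% lower), with a median of 0.04. Its share of called genes was below that of all genes, in the comparison with the most calls. The balance of directions depended on the fit. Without the library rich in ribosomal RNA there were 5 higher and 4 lower (Hspa5, Dnajc10, Pdia4 and Edem1), where 30.4% of all genes were called. DESeq2 gave 5 higher and 5 lower, adding Pdia6, where it called 3610 of 13600 genes.

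**Figure D3:**
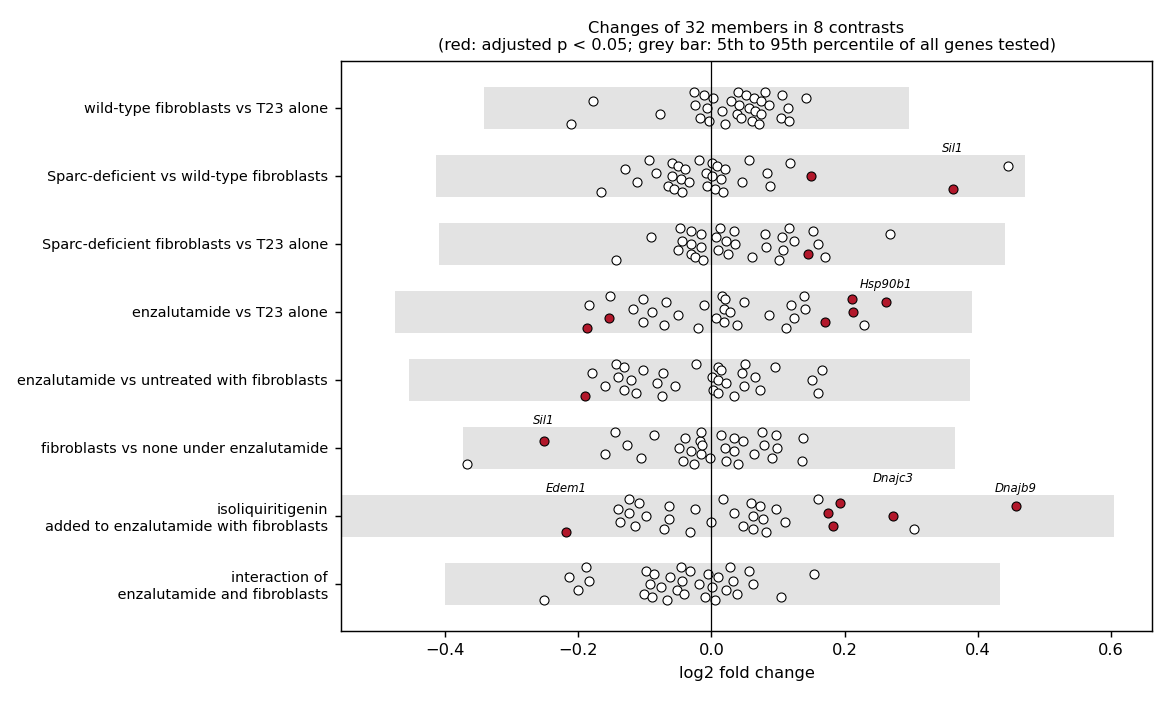
Log2 fold change (x axis) of the 32 genes (points) in 8 contrasts (rows); red points were called, and grey bars span the 5th to 95th percentile of all genes tested. All points lie inside the grey bars, and called points of over 0.215 in size on the log2 scale carry their gene name.

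The sensors and Xbp1 were not called in any comparison. Eif2ak3 was the steadiest gene of the set, with 47.1 to 53.8 CPM over the 18 libraries. Atf6 ran from 96.6 to 116 CPM and Ern1 from 108 to 137 CPM. Fitted on the 6 libraries compared alone, Ern1 was lower with Sparc-deficient fibroblasts than in T23 alone (-0.14 ± 0.05, adjusted p = 0.0383). Xbp1 stood at 140, 138 and 141 CPM in T23 alone, at 138, 145 and 149 with wild-type fibroblasts and at 153, 150 and 146 with Sparc-deficient fibroblasts. It stood at 135, 143 and 123 CPM with enzalutamide, at 132, 124 and 130 in the enzalutamide co-culture and at 121, 122 and 115 with isoliquiritigenin. The libraries of the enzalutamide co-culture all lay below those of the untreated co-culture. This difference was -0.16 ± 0.05 (log2 ± SE, adjusted p = 0.061, edgeR's quasi-likelihood test). It passed the threshold in the fit without the library rich in ribosomal RNA (adjusted p = 0.0298) and by DESeq2 (adjusted p = 0.0382).

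Hspa5 encodes BiP, the Hsp70 of the endoplasmic reticulum and the standard readout of the response, and it was called in no comparison. Its levels were 1383, 1367 and 1362 CPM in T23 alone, 1477, 1532 and 1526 with wild-type fibroblasts, and 1457, 1412 and 1486 with Sparc-deficient fibroblasts. They were 1403, 1533 and 1509 CPM with enzalutamide, 1492, 1437 and 1384 in the enzalutamide co-culture, and 1369, 1272 and 1318 with isoliquiritigenin. The wild-type co-culture libraries all lay above T23 alone, and the isoliquiritigenin libraries all lay below those of the enzalutamide co-culture. The first difference was 0.14 on the log2 scale (95% interval 0.04 to 0.24, adjusted p = 0.276), and the second was -0.12 (95% interval -0.23 to -0.02, adjusted p = 0.0719). Fitted on the 6 libraries compared alone, the first had an adjusted p of 0.0436, while the second had 0.0209 by DESeq2 and 0.0370 in the fit without the library rich in ribosomal RNA.

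Hsp90b1 encodes GRP94, the Hsp90 of the same compartment. It stood at 1098, 1051 and 1061 CPM in T23 alone and at 1152, 1532 and 1166 with enzalutamide. All 3 treated libraries lay above the controls, and replicate 2 lay far above the other 2. The difference of 0.26 ± 0.07 (adjusted p = 0.0232) fell to 0.12 (adjusted p = 0.150) without replicate 2. In co-culture no such difference was measured, with 1091, 1183 and 1182 CPM untreated and 1159, 1165 and 1157 CPM with enzalutamide (0.01 ± 0.07, adjusted p = 0.962). Hsp90b1 was at 1115, 1183 and 1159 CPM with Sparc-deficient fibroblasts and at 1141, 1066 and 1124 with isoliquiritigenin.

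Hyou1, the large Hsp70-like exchange factor of BiP, rose with enzalutamide from 237, 242 and 244 CPM to 259, 258 and 296 CPM (0.17 ± 0.05, adjusted p = 0.0349). It was the member that stayed called without replicate 2 (0.20, adjusted p = 0.0113), but the call was lost in 7 of 13 settings, among them those without replicate 3 of that group or any replicate of T23 alone. In co-culture its enzalutamide difference was 0.15 ± 0.05 (adjusted p = 0.0832, or 0.0396 by DESeq2). Its highest levels, 307, 310 and 323 CPM, were those of the isoliquiritigenin libraries.

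Sil1, the other nucleotide exchange factor of BiP, varied with the fibroblasts. It stood at 39.4, 39.5 and 39.6 CPM in T23 alone, at 33.2, 35.0 and 34.1 with wild-type fibroblasts, and at 44.0, 46.1 and 41.6 with Sparc-deficient fibroblasts. These 3 groups did not overlap, with the wild-type co-culture lowest and the Sparc-deficient co-culture highest. The difference between the co-cultures was 0.36 ± 0.06 (1.29-fold, adjusted p = 0.00012), and the call held in all 14 alternative settings tried for it. Against T23 alone, the differences were -0.21 ± 0.06 (adjusted p = 0.114) with wild-type and 0.15 ± 0.06 (adjusted p = 0.0951) with Sparc-deficient fibroblasts. Under enzalutamide, Sil1 was 38.4, 36.3 and 36.5 CPM without and 30.8, 30.9 and 31.8 CPM with fibroblasts. That fall of 0.25 on the log2 scale (SE 0.06, adjusted p = 0.0223) was lost in 6 of 13 settings. Among them were those without replicate 1 of enzalutamide or without replicate 1 or 2 of its co-culture. Another was the fit with the title numbering as a term, which in this contrast rests the enzalutamide co-culture on its replicate 1 alone. With isoliquiritigenin Sil1 was at 32.3, 33.5 and 32.5 CPM.

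The remaining partners of this class were not called in any comparison. Hspa13, an Hsp70-like ATPase of microsomes, ran from 155 to 184 CPM over the 18 libraries, and Manf, a secreted stress-response protein, from 91.4 to 107 CPM. Creld2 ran from 49.3 to 64.0 CPM. Sdf2l1, a partner of the J-domain protein Dnajb11, ran from 7.45 to 12.9 CPM and had its highest library with isoliquiritigenin (0.30 ± 0.12, adjusted p = 0.0692). That difference was called without replicate 3 of the enzalutamide co-culture (0.41, adjusted p = 0.0329) and without replicate 1 with isoliquiritigenin (0.42, adjusted p = 0.0197). The exons of Manf overlap those of other well-counted genes, as do exons of Syvn1 and Fkbp10, so their counts are uncertain.

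The J-domain co-chaperones, which stimulate the ATPase of BiP and hand it substrates, held 3 of the 6 calls with isoliquiritigenin, with 3 of 4 genes called and all 3 higher, where 26.5% of all genes were called and 12.9% were higher. Dnajb9 (ERdj4, chromosome 12, 44205559 to 44210326 on GRCm38), known as a target of XBP1, had the largest change of any called member. It stood at 35.1, 40.8 and 32.5 CPM in the enzalutamide co-culture and at 51.3, 49.5 and 47.9 CPM with isoliquiritigenin added. All 3 of the latter exceeded the other 15 libraries, of which the highest was enzalutamide replicate 2 with 45.1 CPM. The difference was 0.46 ± 0.10 (95% interval 0.25 to 0.66, 1.37-fold, adjusted p = 0.00124). In the other groups Dnajb9 stayed between 29.2 and 36.8 CPM outside replicate 2 of enzalutamide.

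Dnajc3 (p58IPK, chromosome 14, 118937976 to 118981697), a co-chaperone that is also known to inhibit PERK, stood at 172, 174 and 157 CPM in the enzalutamide co-culture and at 207, 202 and 197 CPM with isoliquiritigenin. The ranges did not overlap, and the difference was 0.27 ± 0.05 (1.21-fold, adjusted p = 0.00022). Dnajb11 (ERdj3, chromosome 16, 22857845 to 22879634) rose from 155, 166 and 154 CPM to 180, 181 and 178 CPM (0.18 ± 0.05, adjusted p = 0.0108). It had also risen with enzalutamide from 133, 140 and 131 CPM to 145, 169 and 154 CPM (0.21 ± 0.05, adjusted p = 0.0101). Without enzalutamide replicate 2 that difference was 0.15 (adjusted p = 0.0634). The isoliquiritigenin calls of Dnajb9, Dnajc3 and Dnajb11 held in all 14 settings, with adjusted p of at most 0.0476. Dnajc10 (ERdj5), the disulfide reductase of the class, went the other way without being called (-0.14 ± 0.05, adjusted p = 0.0517), with 249, 238 and 220 CPM before and 224, 208 and 210 CPM after. It was called lower by DESeq2 (adjusted p = 0.0340), in the fit without the library rich in ribosomal RNA (adjusted p = 0.0349), without replicate 3 of the enzalutamide co-culture (adjusted p = 0.0153) and without replicate 1 with isoliquiritigenin (adjusted p = 0.0323).

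**Figure D4:**
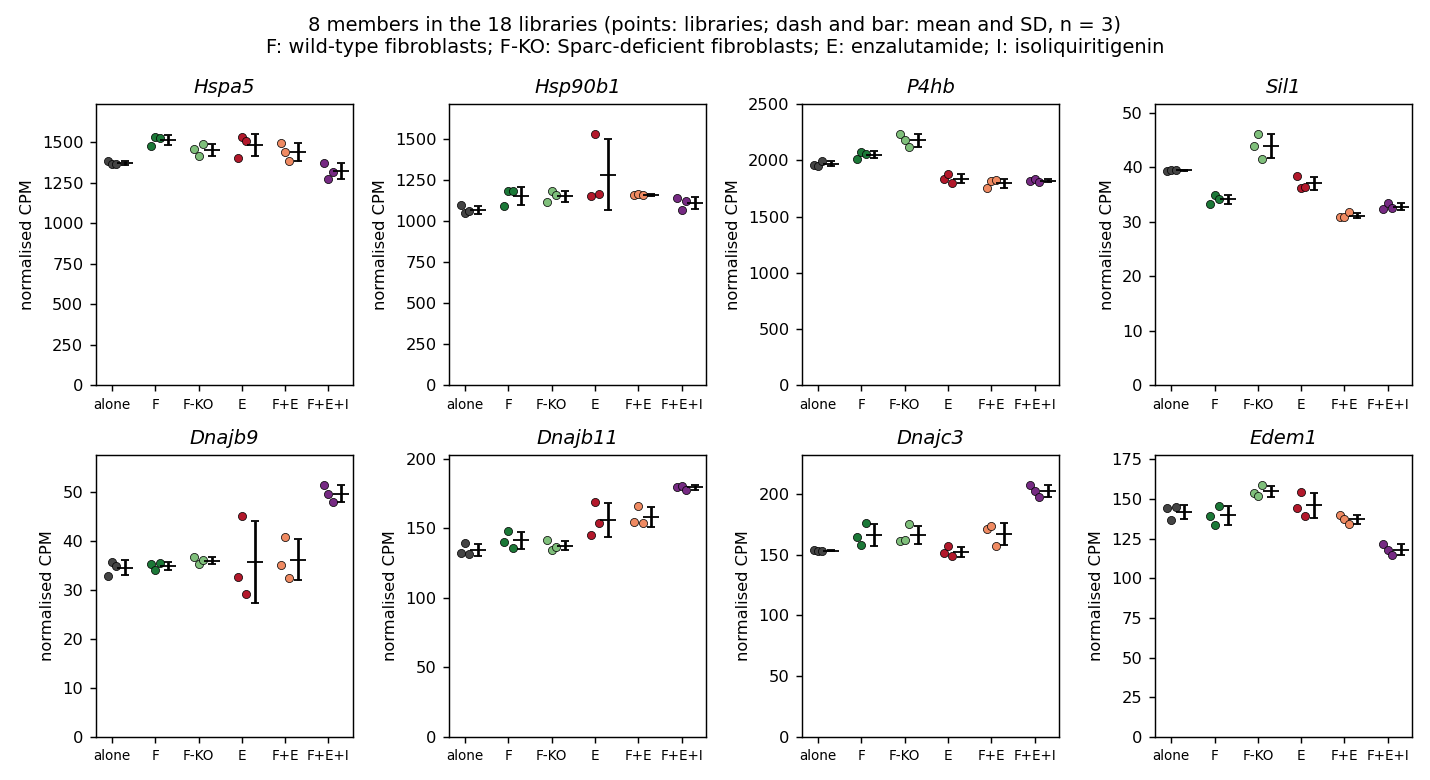
Normalised CPM (y axis from 0) of 8 genes in each library (points) of the 6 groups, with the mean and SD (n = 3). Dnajb9, Dnajb11 and Dnajc3 are highest and Edem1 lowest with isoliquiritigenin, while Hspa5 and Hsp90b1 are not raised there.

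The lectin chaperones calreticulin and calnexin bind glycoproteins with trimmed sugars. Calr stood at 1069, 1098 and 1042 CPM in T23 alone and at 1129, 1374 and 1214 CPM with enzalutamide. The groups did not overlap, and the difference of 0.21 ± 0.06 (adjusted p = 0.029) became 0.13 (adjusted p = 0.137) without replicate 2. In co-culture the difference was 0.17 ± 0.06 (adjusted p = 0.123), or 0.17 with an adjusted p of 0.0259 in the fit without the library rich in ribosomal RNA. Canx was not called in any comparison and ran from 943 to 1210 CPM, with enzalutamide replicate 2 at the top.

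Among the disulfide enzymes, P4hb (chromosome 11, 120560298 to 120573253) was called in 2 comparisons. It stood at 1963, 1955 and 1997 CPM in T23 alone, at 2015, 2079 and 2058 with wild-type fibroblasts, and at 2234, 2185 and 2120 with Sparc-deficient fibroblasts. It stood at 1836, 1876 and 1796 CPM with enzalutamide, at 1754, 1816 and 1824 in the enzalutamide co-culture, and at 1814, 1835 and 1812 with isoliquiritigenin. All 9 libraries with enzalutamide lay below all 9 without it, and the Sparc-deficient co-culture was highest. The call of the rise over T23 alone with Sparc-deficient fibroblasts (0.14 ± 0.05, adjusted p = 0.0431) was lost in 8 of 14 settings. The difference between the co-cultures, 0.09 ± 0.05, was not called (adjusted p = 0.232, or 0.0471 by DESeq2). P4hb fell by 0.19 on the log2 scale with enzalutamide in co-culture (SE 0.05, adjusted p = 0.00959). The call was lost in 1 of 14 settings, the fit with the title numbering as a term, where the difference was -0.23. In this contrast that fit rests the enzalutamide co-culture on its replicate 1 alone, so the loss cannot be read as an effect of the numbering. Without fibroblasts the enzalutamide difference was -0.10 ± 0.05 (adjusted p = 0.145, or 0.0149 by DESeq2), and the interaction was -0.09 ± 0.06 (adjusted p = 0.945).

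Pdia3, the partner of the lectin chaperones, ran from 991 to 1226 CPM, Pdia4 from 216 to 272 CPM and Pdia6, a regulator of IRE1 and PERK, from 399.6 to 491 CPM, and edgeR's fit over all libraries called none. Both Pdia4 (-0.14 ± 0.05, adjusted p = 0.0581) and Pdia6 (-0.10 ± 0.05, adjusted p = 0.117) were lower in all 3 isoliquiritigenin libraries than in the enzalutamide co-culture, without passing the test in this fit. DESeq2 called both lower (adjusted p = 0.0365 and 0.0286). Pdia4 was also called in the fit without the library rich in ribosomal RNA (adjusted p = 0.0158), without replicate 1 of the enzalutamide co-culture (adjusted p = 0.0467) and without replicate 3 with isoliquiritigenin (adjusted p = 0.0373). DESeq2 further called Pdia6 lower with enzalutamide in co-culture (-0.12, adjusted p = 0.0121). Between Sparc-deficient fibroblasts and T23 alone the Pdia4 difference was 0.16 ± 0.05 (adjusted p = 0.0653), and it was called by DESeq2 (adjusted p = 0.0261), without the library rich in ribosomal RNA (adjusted p = 0.0132) and in the fit on the 6 libraries compared (adjusted p = 0.00588). Ero1lb, at 63 to 139 counts per library, had 4.48, 4.01 and 4.55 CPM with wild-type and 5.97, 5.62 and 6.09 CPM with Sparc-deficient fibroblasts. These did not overlap, but the difference of 0.45 ± 0.15 was just outside the threshold (adjusted p = 0.0505). It passed in 4 alternative settings, namely RLE scaling (adjusted p = 0.0492), the title numbering as a term (0.0320), the fit without the library rich in ribosomal RNA (0.0362) and the fit on the 6 libraries compared (0.0221).

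In the degradation machinery, which extracts misfolded proteins from the endoplasmic reticulum, 2 genes moved in opposite directions with isoliquiritigenin. Edem1 (chromosome 6, 108828641 to 108859356), which trims mannose from misfolded glycoproteins, stood at 140, 138 and 134 CPM in the enzalutamide co-culture and at 121, 118 and 115 CPM with isoliquiritigenin. All 3 of the latter were below the other 15 libraries, and Edem1 fell by 0.22 on the log2 scale (SE 0.05, adjusted p = 0.00134), a call that held in all 14 settings. Syvn1 (HRD1, chromosome 19, 6046576 to 6053712), the ubiquitin ligase of the pathway, rose from 63.1, 59.2 and 64.9 CPM to 72.1, 71.7 and 70.3 CPM (0.19 ± 0.06, adjusted p = 0.0119). Its call was lost without replicate 2 of the enzalutamide co-culture (adjusted p = 0.0757). Sel1l, the partner of HRD1, was not called in any comparison and ran from 109 to 132 CPM.

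Edem1 had been higher with Sparc-deficient (154, 152 and 159 CPM) than with wild-type fibroblasts (140, 134 and 145 CPM). The groups did not overlap, but the difference of 0.15 ± 0.05 (adjusted p = 0.0448) was lost in 7 of 14 settings. Derl1, a channel component of the degradation complex, fell by 0.15 on the log2 scale with enzalutamide (SE 0.05, adjusted p = 0.0366), from 167, 170 and 174 CPM to 155, 143 and 161 CPM. Without replicate 2 it was -0.11 (adjusted p = 0.182). Herpud1, a scaffold of the complex and a known target of the response, was called nowhere. It stood at 85.5, 89.9 and 91.0 CPM in T23 alone, at 92.7, 91.1 and 79.3 with wild-type fibroblasts and at 87.4, 86.5 and 83.3 with Sparc-deficient fibroblasts. It stood at 81.2, 76.6 and 81.3 CPM with enzalutamide, at 79.5, 91.6 and 92.3 in the enzalutamide co-culture and at 93.1, 85.3 and 96.5 with isoliquiritigenin. The ranges of the treated and untreated co-cultures overlapped.

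Sec61b, a small subunit of the channel through which proteins enter the endoplasmic reticulum, ran from 56.1 to 84.3 CPM and was not called. Its lowest library was enzalutamide replicate 2. Of the collagen-folding genes, Serpinh1 stood at 1823, 1823 and 1851 CPM in T23 alone and at 1648, 1491 and 1687 CPM with enzalutamide. It fell by 0.19 on the log2 scale (SE 0.06, adjusted p = 0.0453), and was -0.14 (adjusted p = 0.148) without replicate 2. Serpinh1 was at 1926, 1927 and 1720 CPM with wild-type and 1866, 1764 and 1754 CPM with Sparc-deficient fibroblasts. It was at 1583, 1716 and 1789 CPM in the enzalutamide co-culture and 1546, 1599 and 1699 CPM with isoliquiritigenin. These ranges overlapped within each pair. Ppib, a prolyl isomerase, rose with isoliquiritigenin from 68.0, 78.1 and 75.6 CPM to 83.1, 84.0 and 83.1 CPM (0.17 ± 0.06, adjusted p = 0.0452), a call lost in 7 of 14 settings. Fkbp10, an isomerase whose client is collagen, was not called and ran from 269 to 330.1 CPM.

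**Figure D5:**
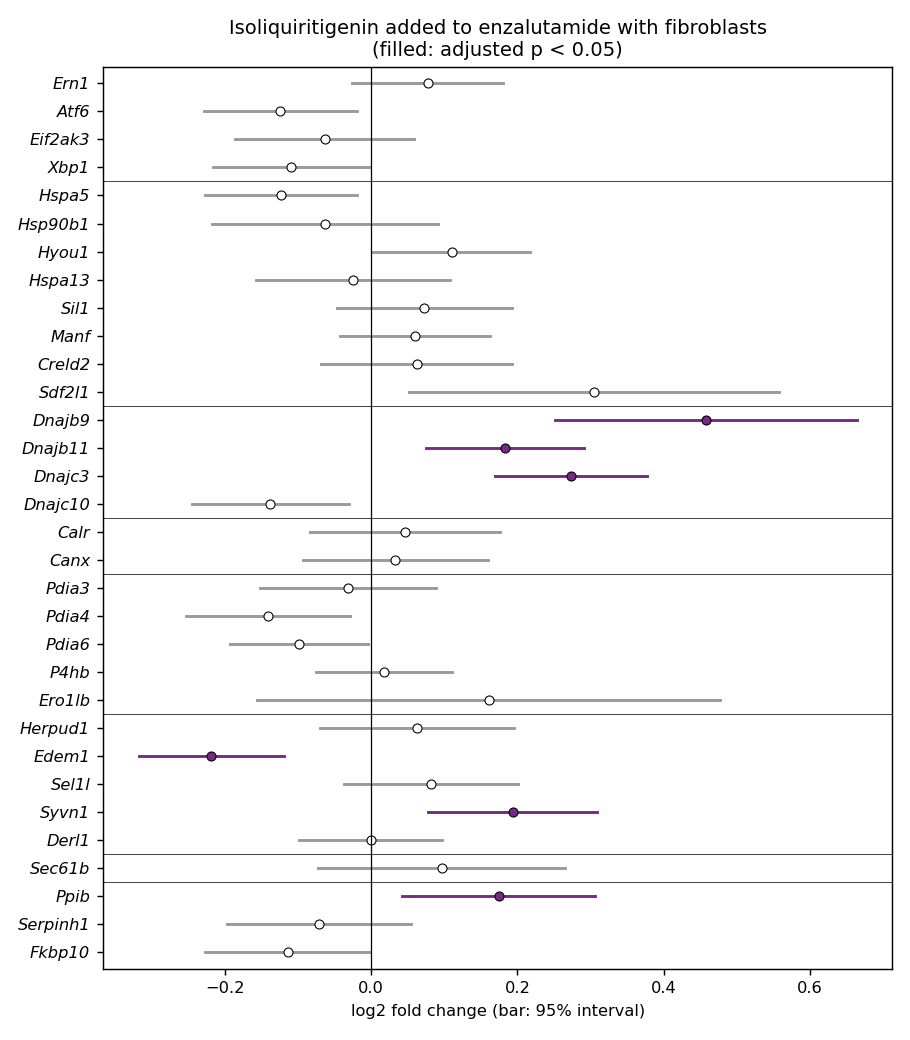
Log2 fold change (point) and 95% interval (bar) of 32 genes when isoliquiritigenin was added to enzalutamide with fibroblasts, grouped by role; filled points were called. Dnajb9 (0.46), Dnajc3 (0.27), Dnajb11 (0.18), Syvn1 (0.19) and Ppib (0.17) were higher and Edem1 (-0.22) lower.

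The genes with ERSE or ERSE-II were compared with the rest as counts only. Over all genes tested, 6.84% were called higher and 5.19% lower with enzalutamide, and 12.9% higher and 13.6% lower with isoliquiritigenin. Of 10 tested genes with either element, 3 were called higher and 0 lower with enzalutamide (Hsp90b1, Calr and Dnajb11), and 3 higher and 0 lower with isoliquiritigenin (Dnajb11, Dnajc3 and Syvn1). All 3 enzalutamide calls were lost without its replicate 2. Of the 14 with a window but neither element, 0 were higher and 1 lower with enzalutamide, and 2 were higher and 1 lower with isoliquiritigenin. Among 13 tested genes outside the set whose window holds either element, 1 was higher and 0 lower with enzalutamide, and 2 were higher and 3 lower with isoliquiritigenin. The median log2 fold change with isoliquiritigenin was 0.05 in the first of these groups, -0.01 in the second and -0.14 in the third.

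Other values moved with these comparisons, and their part in the changes of the set was not tested. With isoliquiritigenin, all 9 tested genes of a list of 10 fibroblast markers were called (7 lower and 2 higher), against 26.5% of all genes. The summed level of the 10 was 22342 to 22764 CPM, against 26690 to 28127 CPM in the enzalutamide co-culture. Lum, on the same list, was near 0 in T23 alone (0.0430 CPM). With wild-type fibroblasts against T23 alone, 0 of the 9 were called, where 0.515% of all genes were. Their log2 fold changes there ran from -0.11 to 0.15. Krt19 was at 5.25 to 7.42 CPM in the enzalutamide co-culture and at 0.414 to 1.97 CPM with isoliquiritigenin (-2.18 ± 0.24, adjusted p = 3.0e-07). It does not stand for the luminal list, of which 5 genes were tested. Of these, 1 was higher, 1 lower and 3 not called, with a median of 0.57, where 26.5% of all genes were called. The mitochondrial share was 2.81% to 3.77%, against 1.55% to 2.71%. With enzalutamide alone, 2 of the 9 fibroblast markers were higher and 3 lower, where 6.84% of all genes were higher and 5.19% lower. These calls include replicate 2, rich in ribosomal RNA, and were not read without it. The sum of the 10 was 29350, 26807 and 27715 CPM in replicates 1 to 3, against 31081 to 32316 CPM in T23 alone. The mitochondrial share in the same replicates was 1.88%, 4.06% and 2.29%, against 0.824% to 1.11%. In the fit with the title numbering as a term, which rests the isoliquiritigenin contrast on libraries after the restart, Dnajb9 changed by 0.44 (adjusted p = 0.00821), Dnajc3 by 0.29 (adjusted p = 0.00064), Dnajb11 by 0.17 (adjusted p = 0.0462) and Edem1 by -0.20 (adjusted p = 0.00802).

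Other genes of the pathway were read from fixed lists, whose counts stand beside the shares of all genes called: 26.5% with isoliquiritigenin (12.9% higher and 13.6% lower), 0.515% with wild-type fibroblasts, 7.18% with enzalutamide in co-culture and 12.0% with enzalutamide alone (6.84% higher). In the PERK and ATF4 branch (12 genes tested), 1 was higher and 3 were lower with isoliquiritigenin (33.3%). The log2 fold changes of the 12 ran from -0.67 to 0.79, with 4 positive and a median of -0.05. The 3 called genes named next were picked by smallest p and are all lower, so they do not stand for the branch. Asns, the asparagine synthetase that ATF4 drives, fell by 0.47 on the log2 scale (SE 0.06, adjusted p = 3.4e-06), and Trib3, a pseudokinase target of CHOP, fell by 0.67 (SE 0.11, adjusted p = 4.5e-05). Ddit4, a stress-induced inhibitor of mTOR, fell by 0.49 (SE 0.10, adjusted p = 0.00043). With wild-type fibroblasts 2 were lower and 0 higher, namely Chac1, a glutathione-degrading enzyme (-0.59 ± 0.10, adjusted p = 0.0042), and Trib3 (-0.52 ± 0.11, adjusted p = 0.0227). With enzalutamide in co-culture 3 were higher and 2 lower, with Chac1 (0.50 ± 0.10, adjusted p = 0.002) and Trib3 (0.50 ± 0.11, adjusted p = 0.0043) higher. Those comparisons share the untreated co-culture. Between Sparc-deficient fibroblasts and T23 alone, 1 of the 12 was higher and 3 lower (33.3%, against 9.74% of all genes). Between Sparc-deficient and wild-type fibroblasts 1 was higher and 0 lower (8.33% against 11.5%). Fibroblasts against none under enzalutamide gave 2 lower and 0 higher (16.7% against 2.08%). Enzalutamide alone gave 2 higher and 0 lower (16.7% against 12.0%). Chac1 was called in the interaction (0.78 ± 0.14, adjusted p = 0.0496), with 13.1, 13.0 and 11.9 CPM in T23 alone, 8.54, 8.80 and 7.84 with wild-type fibroblasts, 11.2, 9.16 and 10.5 with enzalutamide and 12.5, 11.2 and 11.9 with fibroblasts and enzalutamide. That call was not stable. For the interaction, 0 genes of any kind were called with RLE scaling, upper-quartile factors or a replicate block. The same held in the fit on the groups compared and without enzalutamide replicate 2.

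Among 18 other folding enzymes, Ero1l, the widely expressed oxidase that recharges protein disulfide isomerase, varied most. It stood at 97.0, 99.6 and 131 CPM with wild-type fibroblasts and at 192, 214 and 209 CPM with Sparc-deficient fibroblasts (0.91 ± 0.14, adjusted p = 0.00011). It was at 72.0, 60.9 and 80.4 CPM in the enzalutamide co-culture and at 47.1, 32.8 and 39.9 CPM with isoliquiritigenin (-0.83 ± 0.15, adjusted p = 0.00021). Neither pair of groups overlapped. With isoliquiritigenin, 2 of these 18 were higher and 3 lower (27.8%, against 26.5% of all genes), with Pdia5 at -0.44 ± 0.05 (adjusted p = 5.6e-07) and Fkbp14, a collagen isomerase, at 0.48 ± 0.10 (adjusted p = 0.00047).

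Of 16 other degradation genes, 5 were higher and 0 lower with isoliquiritigenin (31.2%, against 26.5% of all genes, of which 12.9% were higher; median 0.12), among them Derl2 (0.23 ± 0.06, adjusted p = 0.0053), Edem3 (0.25 ± 0.07, adjusted p = 0.0127) and the lectin Os9 (0.20 ± 0.06, adjusted p = 0.0153). Edem1 and its relative Edem3, both of the mannose-trimming family, thus changed in opposite directions. Of 10 other regulators tested, 3 were higher and 2 lower (50% against 26.5%), with Wfs1, a membrane protein that restrains ATF6, at 0.51 ± 0.07 (adjusted p = 1.6e-05) and the collagen regulator Creb3l1 at -0.27 ± 0.06 (adjusted p = 0.0022). Of 22 translocation and glycosylation genes, 2 were higher and 1 lower (13.6% against 26.5%). For comparison outside the compartment, 6 of 14 heat shock genes of the cytosol and mitochondria were higher and 0 lower with enzalutamide alone (42.9% called, against 12.0% of all genes, 6.84% higher). They were led by the mitochondrial chaperonin Hspd1 (0.41 ± 0.06, adjusted p = 3.1e-05). These enzalutamide values include the replicate rich in ribosomal RNA and were not read without it. With isoliquiritigenin, 3 of the 14 were higher and 3 lower (42.9% against 26.5%).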

How the data were processed

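Poly(A) RNA was sequenced as stranded libraries on a NextSeq 550, per the labels' protocols. The authors deposited raw counts per gene, 1 file per library, with Ensembl identifiers. The submitters' processing notes name cutadapt 2.9, STAR 2.6.1d, featureCounts 2.0 and build GRCm38. The annotation release, strand setting and handling of multiply mapped reads are not given in the sources used here, so overlapping genes are uncertain. Of 55487 genes, 55141 were paired with symbols through GENCODE M21. Counts were filtered with filterByExpr (minimum count 10; 13600 genes kept), normalised with TMM factors and modelled over all 18 libraries with a mean per group in edgeR 4.0.16, run in R 4.3.3 (12 residual degrees of freedom, biological coefficient of variation 7.03%). Contrasts of group means were tested with the two-sided quasi-likelihood F test, and SE was taken as absolute log2 fold change divided by √F. Alternatives were DESeq2 1.42.0, other scalings and filters, fits on fewer libraries, added terms and each replicate left out. Depth was 16.1 to 26.7 M counts.

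The 33 genes and the other lists were chosen with earlier results of these data known. All 33 are accounted for. Values in every library are given for Hspa5, Xbp1, Dnajb9, Herpud1, Hsp90b1 and Serpinh1 whatever their result, and for up to 6 called genes per comparison with the largest log2 fold change and ranges that did not overlap. Values of Sil1, P4hb, Calr, Derl1, Ppib, Hyou1, Ero1lb, Dnajc10, Krt19 and Sparc in groups outside this rule were added after they were seen. Of the other lists, up to 3 called genes per comparison by smallest p could be named. A few markers of the luminal list are not reported here.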

Additional observations from a re-analysis of the deposited data

How the results depend on the processing

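Of 17 called values, 0 changed sign in 231 alternative values and 64 lost the call. The number of called genes moved as follows. Fitted on the groups compared alone, it was 2 for wild-type fibroblasts against T23 alone (Hspa5 and Sil1), 5 for Sparc-deficient fibroblasts against T23 alone (Ern1 lower, Hyou1, Pdia4, P4hb and Edem1 higher), 0 for enzalutamide against T23 alone and 0 for fibroblasts against none under enzalutamide. Over all genes these fits called, in the same order, 336 of 12908, 2188 of 12990, 740 of 12909 and 56 of 12845. The fit over all 18 libraries called 70, 1325, 1636 and 283 of 13600. With no filter on low counts, the number of called members was 1 for Sparc-deficient against wild-type fibroblasts, 0 for Sparc-deficient fibroblasts against T23 alone and 0 for fibroblasts under enzalutamide. Calls over all 29358 genes of that fit were 1475, 1245 and 541. With upper-quartile factors the number of called members was 0 for Sparc-deficient fibroblasts against T23 alone and 3 for enzalutamide in co-culture, where 1320 and 1034 of 13600 genes were called. The fit with the title numbering as a term rests the enzalutamide co-culture on its replicate 1 alone in comparisons with the earlier groups. Its counts for enzalutamide in co-culture and for fibroblasts under enzalutamide are therefore not set beside these. In the fit without the library rich in ribosomal RNA the number of called members was 2 for Sparc-deficient fibroblasts against T23 alone (P4hb and Pdia4), 6 for enzalutamide in co-culture and 9 for isoliquiritigenin (5 higher and 4 lower). Calls over all genes were 1724, 1423 and 4225 of 13886. DESeq2 gave 2 for Sparc-deficient fibroblasts against T23 alone, 6 for enzalutamide in co-culture and 10 for isoliquiritigenin (5 higher and 5 lower, the latter Hspa5, Dnajc10, Pdia4, Pdia6 and Edem1). Over all genes it called 1428, 1151 and 3610 of 13600. The cause of these moves was not tested.

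With each replicate left out in turn, the number of called genes ran from 0 to 0 for wild-type fibroblasts against T23 alone, 1 to 2 for Sparc-deficient against wild-type fibroblasts, 0 to 0 for Sparc-deficient fibroblasts against T23 alone, 0 to 5 for enzalutamide against T23 alone, 1 to 1 for enzalutamide in co-culture, 0 to 1 for fibroblasts under enzalutamide, 5 to 7 for isoliquiritigenin and 0 to 0 for the interaction. Calls over all genes ran, in the same order, from 11 to 56, 857 to 1352, 743 to 1003 and 901 to 1710. For the later comparisons they ran from 550 to 924, 83 to 419, 2522 to 3365 and 0 to 12. No replicate pairing was found: same-number correlations ran from -0.144 to 0.0982 and none of 15 pairs of groups had all above 0.1. With the replicate block, the count was 1 for Sparc-deficient against wild-type fibroblasts (Edem1 lost, adjusted p = 0.0688) and 5 each for enzalutamide against T23 alone (Serpinh1 lost, adjusted p = 0.051) and isoliquiritigenin (Ppib lost, adjusted p = 0.051), and no other count of members moved. Over all genes the block gave 1441, 1539 and 3498 calls in these comparisons, of 13600 genes. Depth does not limit the abundant genes, but Ero1lb (63 to 139 counts) and Sdf2l1 (95 to 281 counts) have wide intervals.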
